A study of Mus musculus with 18 samples.

Results

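AFSC and naive ESC of the mouse were compared gene by gene from RNA-seq of 6 of the 18 samples of the series, the 3 whose labels read AFSC and the 3 whose labels read ESC. The series was made to describe stem cell lines that can be kept from the blastocyst in different media, and it holds 6 groups of 3 replicates. Both groups used here are wild type cells of the strain 129S2/SvPasCrl by their labels. AFSC were grown in Activin A and FGF2 (bFGF) in the serum-free base N2B27, without feeder cells, and the labels call them primed pluripotent stem cells. The naive ESC were grown in 2iL, which is leukemia inhibitory factor with inhibitors of the kinases MEK and GSK3. The study's methods describe blastocysts of 129/sv females and reporter males of a mixed background as the source of AFSC lines, which is not the single strain of the labels. The study calls the 3 samples of a group biological replicates without saying how many lines stand behind them. The p-values of the fits below rest on the spread within groups, estimated over all 18 samples. This may be the spread between cultures of 1 line in each group.

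Pluripotent cells pass through successive states around the time the embryo implants. In the naive state, held in culture by LIF and by blocking ERK signalling, a set of transcription factors such as ESRRB, KLF4 and TFCP2L1 supports the core factors OCT4, SOX2 and NANOG. Activin and FGF signals hold cells in the primed state of the epiblast after implantation, in which the naive factors are silenced, genes of the coming germ layers are transcribed at a low level and promoters of germline genes become methylated.

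Libraries held 7046111 to 7490257 counts in AFSC and 4961934 to 8077252 in ESC, with ESC replicate 1 the shallowest. Replicate 1 stood apart from the others in both groups. Mitochondrial genes took 14.4% of the counts in AFSC replicate 1 and 1.51% and 1.92% in the other AFSC samples, and 8.08% in ESC replicate 1 against 2.7% and 2.92%. The 12 samples of the other groups had 1.43% to 4.59%. Replicates 2 and 3 of ESC were the closest pair, with a chi-square per degree of freedom of 1.609 between their counts over genes, against 1.885 to 92.14 for the other pairs of replicates of the series. Fragments counted more than once raise this value, so it does not show whether the pair came from separate cultures. The samples were counted separately as labelled, and with ESC replicates 2 and 3 summed as 1 sample, a choice made after seeing the data, 3290 genes were higher and 3298 lower, against 3357 and 3316 with the samples apart. Where leaving out a sample moved a count of called genes by more than 1.5 times, this is said beside the count. A level, here and below, is the normalised read count of a gene per kb of exon.

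Of 35773 genes, 16901 had enough counts to be tested. In AFSC 3357 genes were higher and 3316 lower than in ESC (edgeR quasi-likelihood test, adjusted p below 0.05 and a log2 fold change beyond 1). These are 19.9% and 19.6% of the genes tested and serve as the background for the gene groups below. The study set stricter thresholds for a pair of cell types, namely a change of more than 2 on the log2 scale and a mean log2 level over 3 in either type. By these, 1365 genes (8.08%) were higher and 1401 (8.29%) lower. The median log2 fold change of all tested genes was -0.03. In 3222 of the genes called higher and 3167 of those called lower, the 3 AFSC samples did not overlap with the 3 ESC samples, against 10037 (59.4%) of all tested genes without overlap in either direction. Of the called genes, 374 lower ones had no count in any AFSC sample and 212 higher ones had none in any ESC sample. Expressed in levels, 450 genes went from above 10 in ESC to below 1 in AFSC and 289 the other way. Of the genes called, 2946 higher and 2771 lower ones were annotated as protein coding.

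**Figure D1:**
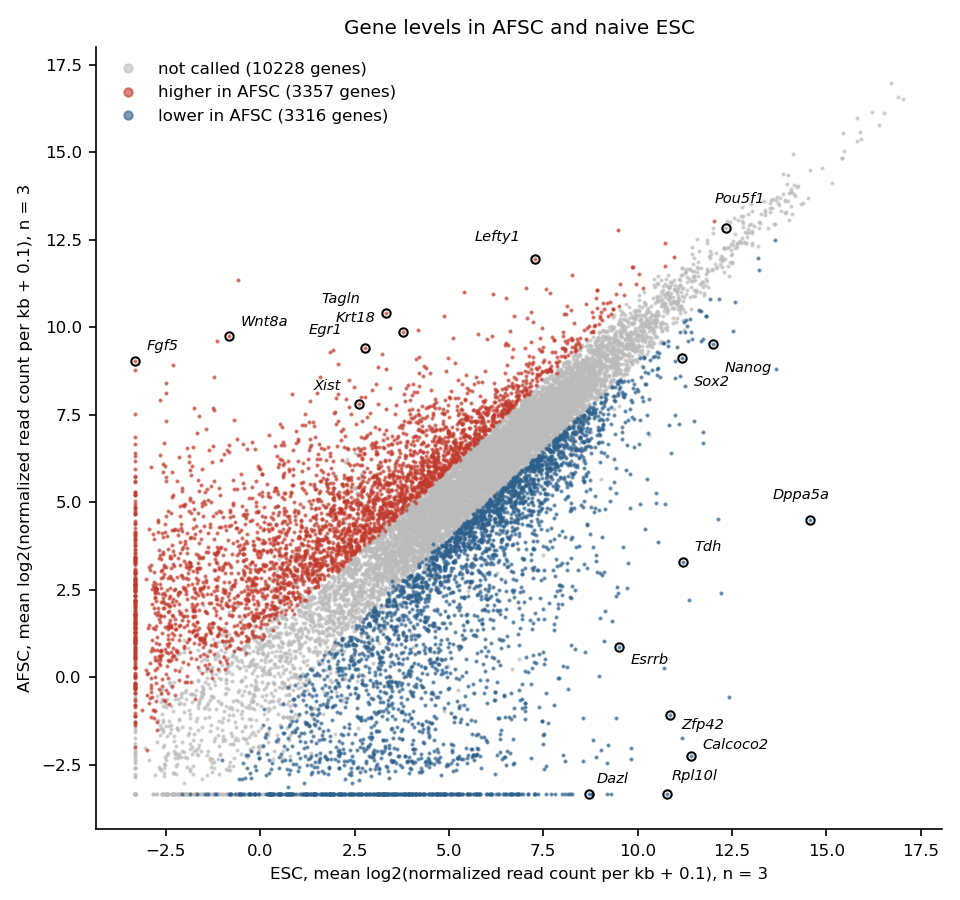
Mean log2(normalised read count per kb + 0.1) of each tested gene in the 3 ESC samples (x axis) and the 3 AFSC samples (y axis), with the 3357 genes called higher in AFSC in red, the 3316 called lower in blue and named genes circled. Genes without counts in a group line up at the edge of the plot, at the bottom where AFSC had none (374 of those called) and at the left where ESC had none (212).

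The labels were checked against marker genes. OCT4 (*Pou5f1*) had levels of 7109, 8338 and 6787 in AFSC and 5073, 5424 and 5159 in ESC, the AFSC samples all being the higher ones, with a log2 fold change of 0.51 ± 0.194 that did not pass the threshold of size. *Sox2* was at 709, 555 and 429 in AFSC and 2691, 2191 and 2107 in ESC, and *Nanog* at 807, 669 and 738 and 4967, 3671 and 3688. Both fell, by 2.04 and 2.47 on the log2 scale, and stayed above a level of 400 in every AFSC sample. Of the 11 tested genes of the core pluripotency list, 3 were higher and 5 lower. Those higher were *Utf1*, a chromatin-bound factor of pluripotent cells, *Lin28a* and *Lin28b*. The LIN28 proteins block maturation of the let-7 microRNAs. *Lin28a* rose from 71.9, 110 and 98 in ESC to 624, 841 and 808 in AFSC and *Lin28b* from 0.729, 0.862 and 1.03 to 78.8, 48.6 and 75.4, so that both paralogs separated the groups without overlap, with log2 fold changes of 3.01 ± 0.169 and 6.20 ± 0.426 (edgeR, adjusted p = 1.45e-11 and 2.79e-10). The paired genes *Dppa2* and *Dppa4*, whose proteins act together at chromatin of early embryo genes, moved the other way. *Dppa4* was at 4.39, 6.04 and 2.7 in AFSC and 299, 215 and 204 in ESC. *Tdgf1*, the Nodal co-receptor, overlapped between the groups at 637, 675 and 996 and 723, 574 and 609.

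All 15 naive transcription factors tested were lower in AFSC, with a median log2 fold change of -7.11, and none of them overlapped between the groups. *Esrrb*, an orphan nuclear receptor, had levels of 0.668, 2.68 and 2.74 in AFSC and 596, 802 and 806 in ESC. *Prdm14*, which keeps FGF signalling and DNA methylation low in naive cells, had no count in any AFSC sample and 146, 165 and 181 in ESC, which is at least 367-fold lower against a floor of 3 counts over the AFSC group. *Zfp42* (REX1) was at 1.43, 0.615 and 0 against 1652, 1934 and 1961, with 3 counts in all AFSC samples together and a ratio of ESC to AFSC of 3034 (95% Poisson interval 1038 to 14710). The factors were not silenced to the same extent. *Klf2* kept 104, 77.7 and 74.6 in AFSC against 2249, 1654 and 1808 in ESC, and *Mybl2* kept 97.7, 149 and 135 against 1013, 1342 and 1370. *Gbx2*, *Sp5*, *Zfp57* and *Klf5* also kept levels above 18 in every AFSC sample. *Klf5* rested on a wider spread, since ESC replicate 1 was at 134 and the other ESC samples at 387 and 417. Its log2 fold change was -3.00 ± 0.403 (edgeR, adjusted p = 4.14e-06).

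Among 20 further marker genes of the naive epiblast and the inner cell mass, 18 were lower, 1 was higher and the median log2 fold change was -4.93. *Dppa5a*, an RNA-binding protein gene (chromosome 9, 78367052 to 78368177), had the highest level of the genes that were lower by the study's thresholds, 24235, 24117 and 24127 in ESC and 21.8, 39.3 and 13.4 in AFSC. *Dppa3* (Stella), a maternal protein that protects methylation in the zygote, fell from 3580, 1992 and 1743 to 0, 2.6 and 0, with 2 counts left in AFSC and a ratio of 2581 (95% Poisson interval 714 to 21311). *Tcl1*, a co-activator of AKT, and *Ooep*, a subunit of the maternal complex under the oocyte's membrane, had no count in AFSC and were at least 721-fold and at least 482-fold lower. *Fgf4*, the FGF ligand of naive cells, kept 78, 71 and 76.5 in AFSC against 720, 603 and 680 in ESC. The gene of the list that was higher was *Nodal*, at 579, 512 and 868 in AFSC and 334, 221 and 263 in ESC, and *Zscan10* overlapped between the groups.

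Of the 24 genes of the formative and primed epiblast, 20 were higher in AFSC and 1 was lower, with a median log2 fold change of 2.91. *Fgf5* (chromosome 5, 98254184 to 98277030), the FGF ligand that marks the epiblast after implantation, had no count in ESC and 399, 621 and 586 in AFSC, at least 1026-fold higher. *Pou3f1* (OCT6), a POU factor, was at 212, 282 and 225 in AFSC and 2.05, 2.12 and 3.19 in ESC, and *Sox3* was at 85.4, 105 and 93.3 and 6.67, 7.89 and 5.4. For *Wnt8a*, 3 counts in the ESC group stood against levels of 747, 658 and 1287 in AFSC, a ratio of 1211 (95% Poisson interval 415 to 5874). Smaller rises were seen for *Otx2*, the homeobox factor of the exit from the naive state, with a log2 fold change of 1.61 ± 0.145, and for *Lef1*, with 1.18 ± 0.162. *Foxd3* was at 91.6, 109 and 94.1 in AFSC against 173, 167 and 170 in ESC, a change under the threshold of size. The gene called lower was *Dnmt3l*, at 2.7, 2.32 and 2.43 against 103, 180 and 169.

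**Figure D2:**
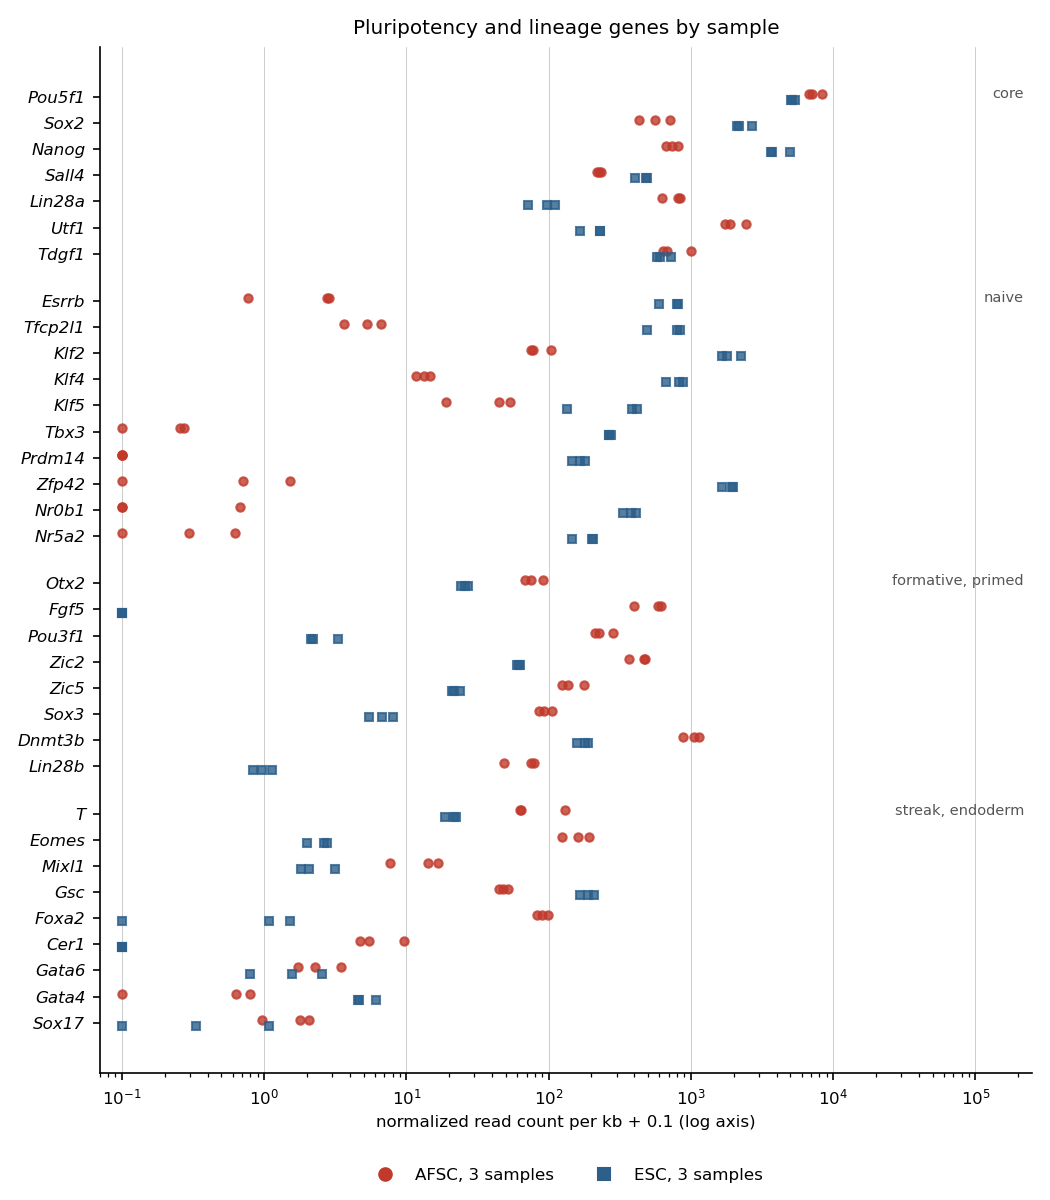
Normalised read count per kb + 0.1 on a log axis for core, naive, formative or primed and germ layer genes, with 1 point for each of the 3 AFSC samples (red circles) and the 3 ESC samples (blue squares); points at 0.1 have no counts. The naive factors lie apart with AFSC on the low side, *Pou5f1* and *Tdgf1* lie close together in both groups, and the primed genes lie apart with AFSC on the high side.

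Germ layer genes were split by kind. Of 22 tested genes of the primitive streak and mesoderm, 7 were higher and 7 lower. *Eomes*, a T-box factor of the streak and endoderm, rose from 1.9, 2.52 and 2.68 to 124, 161 and 191 (6.01 ± 0.236, edgeR, adjusted p = 1.16e-13), and *Fgf8* from 7.29, 3.45 and 1.65 to 776, 442 and 720. *T* (brachyury) was at 62.8, 64 and 130 in AFSC and 18.7, 21.6 and 22.2 in ESC, with AFSC replicate 3 well above the other AFSC samples. The caudal factor gene *Cdx1* had no count in AFSC and 135, 142 and 135 in ESC, at least 206-fold lower, and *Cdx2* was at 1.79, 2.05 and 2.75 against 71.4, 112 and 102. *Gsc*, the organiser homeobox gene, was also lower in AFSC, at 52, 44.7 and 47.4 against 208, 166 and 190. Genes of later mesoderm, among them *Mesp1*, *Tbx6*, *Foxf1* and *Cdx4*, had too few counts to be tested.

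In the endoderm list, 11 of 19 tested genes were higher and 6 lower, with a median log2 fold change of 1.63. *Foxa2*, the pioneer factor of endoderm, was at 99.4, 82.5 and 89.6 in AFSC and 0, 0.982 and 1.41 in ESC. Among the highest members were the simple epithelial keratins, which many other cell types share: *Krt8* was at 1426, 1279 and 1169 against 37.1, 28.4 and 22.9, *Krt18* at 1119, 924 and 763 against 15.5, 12.5 and 13.5 and *Krt19* at 410, 360 and 256 against 12.7, 7.53 and 6.01. *Sox17* was called higher on levels of 1.98, 1.7 and 0.868 against 0, 0.976 and 0.234, which overlapped and rested on 18 counts in AFSC and 5 in ESC. *Gata6* was not called, at 3.37, 2.17 and 1.62 and 2.47, 1.46 and 0.699, and *Gata4* was lower in AFSC, at 0.69, 0 and 0.531 against 6.05, 4.47 and 4.57. *Cer1*, the secreted Nodal antagonist, had no count in ESC and 4.65, 5.33 and 9.53 in AFSC, at least 8.8-fold higher. In a fit of the AFSC and ESC samples alone, 6 genes of this list were higher; *Cer1*, *Foxa1*, *Frzb*, *Nog* and *Sox17* were left out or lost.

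Markers of other cell types that the cultures could hold were mostly low. In the primitive and visceral endoderm list, *Ttr*, *Apoa1*, *Afp* and *Sox7* had at most 7 counts in a group, 5 of the 14 tested genes were higher and 4 lower, and the summed level was 1829 to 2511 in AFSC and 2733 to 3732 in ESC. Its abundant members were matrix and lipid genes found in many cells, such as *Apoe* and *Sparc*. Of 13 tested trophoblast genes 3 were higher and 7 lower, with summed levels of 206 to 270 in AFSC and 556 to 586 in ESC; *Elf5*, *Tpbpa* and *Prl3d1* had at most 3 counts in a group. Of 11 tested neural genes 2 were higher and 4 lower, and *Pax6* and *Zic1* were below 1 in both groups. *Map2*, 1 of the 2 higher ones, was not called without ESC replicate 1. Summed levels of the fibroblast and mesenchyme list were 1141 to 1831 in AFSC and 95 to 146 in ESC. Most of the AFSC sum came from *Tagln*, an actin-binding protein gene, at 949, 1650 and 1564 against 16.1, 6.6 and 9.14, while *Col1a1* was at 23.6, 13.6 and 25.9 against 29.4, 14.4 and 23.3 and *Dcn*, *Lum* and *Postn* were at or near 0 in AFSC. Of the 10 tested genes in this list 3 were higher and 2 lower, and 5 were higher without ESC replicate 2. In these bulk samples, fewer cells of a type and less RNA per cell cannot be told apart.

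FGF signals through ERK, which is blocked by the MEK inhibitor in 2iL. Of 34 genes of the FGF ligands, receptors and the ERK response, 23 were higher in AFSC and 2 lower (67.6% and 5.88%, against 19.9% and 19.6% of all tested genes), with a median log2 fold change of 2.6. Among the ligands, *Fgf5*, *Fgf8*, *Fgf15* and *Fgf17* were higher, while *Fgf4* was lower, with a log2 fold change of -3.15 ± 0.13. Of the receptors, *Fgfr1* had the highest level, 191, 116 and 176 in AFSC and 135, 110 and 112 in ESC, and was not called. *Fgfr3* was called higher on few counts, 20 in AFSC and 4 in ESC, at 1.69, 0.485 and 1.16 against 0.275, 0.325 and 0.156, and was not called without AFSC replicate 1 or without ESC replicate 3. The immediate early gene *Egr1* went from 7.03, 7.79 and 5.72 in ESC to 729, 681 and 642 in AFSC, and *Fos* from 4.19, 6.93 and 4.27 to 359, 369 and 351, both without overlap (6.65 ± 0.162 and 6.09 ± 0.207, edgeR, adjusted p = 6.72e-16 and 2.31e-14). Phosphatases that switch ERK off differed from gene to gene. *Dusp6*, which acts on ERK in the cytoplasm, was at 447, 409 and 379 against 24.6, 16.2 and 15.6, and *Dusp4* at 43.7, 82.4 and 90 against 1.44, 1.27 and 1.22. *Dusp7* and *Dusp14* had higher levels in ESC without passing the threshold of size, with log2 fold changes of -0.54 ± 0.162 and -0.77 ± 0.18. Of the Sprouty inhibitors, *Spry4* rose from 0.429, 1.52 and 1.22 to 34.9, 39.1 and 44.7 and *Spry1* by 2.69 ± 0.208, while *Spry2* was at 424, 472 and 460 against 368, 416 and 401 and was not called. *Etv4* rose by 2.58 ± 0.152, and its paralog *Etv5* was at 330, 535 and 499 in AFSC and 655, 947 and 921 in ESC. *Ccnd1*, cyclin D1, was the other gene of this list that was lower, at 211, 246 and 224 against 498, 603 and 570.

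Nodal and activin signal through SMAD2 and SMAD3, and the Lefty proteins are feedback inhibitors. Of 26 tested genes of this pathway 9 were higher and 4 lower (34.6% and 15.4%), and the median log2 fold change was 0.02. The neighbouring paralogs moved in opposite directions: *Lefty1* was at 3931, 3333 and 4730 in AFSC and 200, 113 and 164 in ESC, and *Lefty2* at 54.2, 40.3 and 73 against 512, 329 and 376 (log2 fold changes of 4.67 ± 0.199 and -2.84 ± 0.217, edgeR, adjusted p = 3.25e-13 and 1.18e-09). *Fst* (follistatin, which binds activin) rose from 23.6, 14.4 and 18.1 to 149, 121 and 246 and *Pmepa1* by 2.03 ± 0.151. The feedback gene *Smad7* was at 74.2, 95 and 72.6 in AFSC and 162, 155 and 168 in ESC. Its change lay at the threshold of size and was not past it. The ligand gene *Gdf3* and the receptor *Acvr1b* were lower, and *Smad2* and *Smad4* were not called.

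The GSK3 inhibitor of 2iL stabilises beta-catenin, and AFSC medium has no such inhibitor. In the Wnt list 14 of 34 tested genes were higher and 14 lower (41.2% each), with a median of -0.18. The ligands *Wnt3*, *Wnt8a*, *Wnt5a*, *Wnt5b* and *Wnt11* were all higher in AFSC, *Wnt3* with 125, 97.8 and 186 against 6.4, 3.03 and 3.99. Feedback and target genes went both ways. *Axin2*, the usual readout of beta-catenin, was at 49.2, 56.8 and 82.6 in AFSC and 185, 226 and 216 in ESC. *Notum*, which removes a lipid from Wnt ligands, was at 8.95, 5.29 and 8.6 against 653, 454 and 506, and *Sp5* at 68.6, 84.3 and 114 against 505, 515 and 545. *Rnf43*, *Dkk1*, *Apcdd1*, *Cdx1*, *Cdx2* and *Tbx3* were lower as well, while *Lef1*, *T*, *Sp8*, *Nkd1* and *Nkd2* were higher. Receptors differed by gene: *Fzd7* was at 190, 141 and 197 in AFSC and 9.12, 6.42 and 5.91 in ESC, whereas *Fzd5* was at 22.2, 17.9 and 24 against 114, 109 and 116.

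LIF acts through LIFR and GP130 (*Il6st*) on STAT3. Of 21 tested genes 1 was higher and 14 were lower, with a median log2 fold change of -2.35. Both receptor genes were lower, *Lifr* at 1.3, 2.24 and 1.91 in AFSC and 46.7, 32.8 and 38.4 in ESC and *Il6st* at 17.5, 9.91 and 20.9 against 103, 70 and 83.8. *Stat3* itself was at 12.9, 18.2 and 15.5 against 64.5, 115 and 119. Its feedback inhibitor *Socs3* was at 38.7, 29.6 and 30.5 against 386, 393 and 365, and *Bcl3*, a nuclear IkB protein, at 1.63, 0 and 0.419 against 371, 366 and 379. The kinases *Jak1* and *Jak2* were not called. *Junb* was the gene of this list that was higher, at 214, 180 and 149 against 65, 57.2 and 70.3. The list shares *Klf4*, *Klf5*, *Gbx2* and *Tfcp2l1* with the naive transcription factors.

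**Figure D3:**
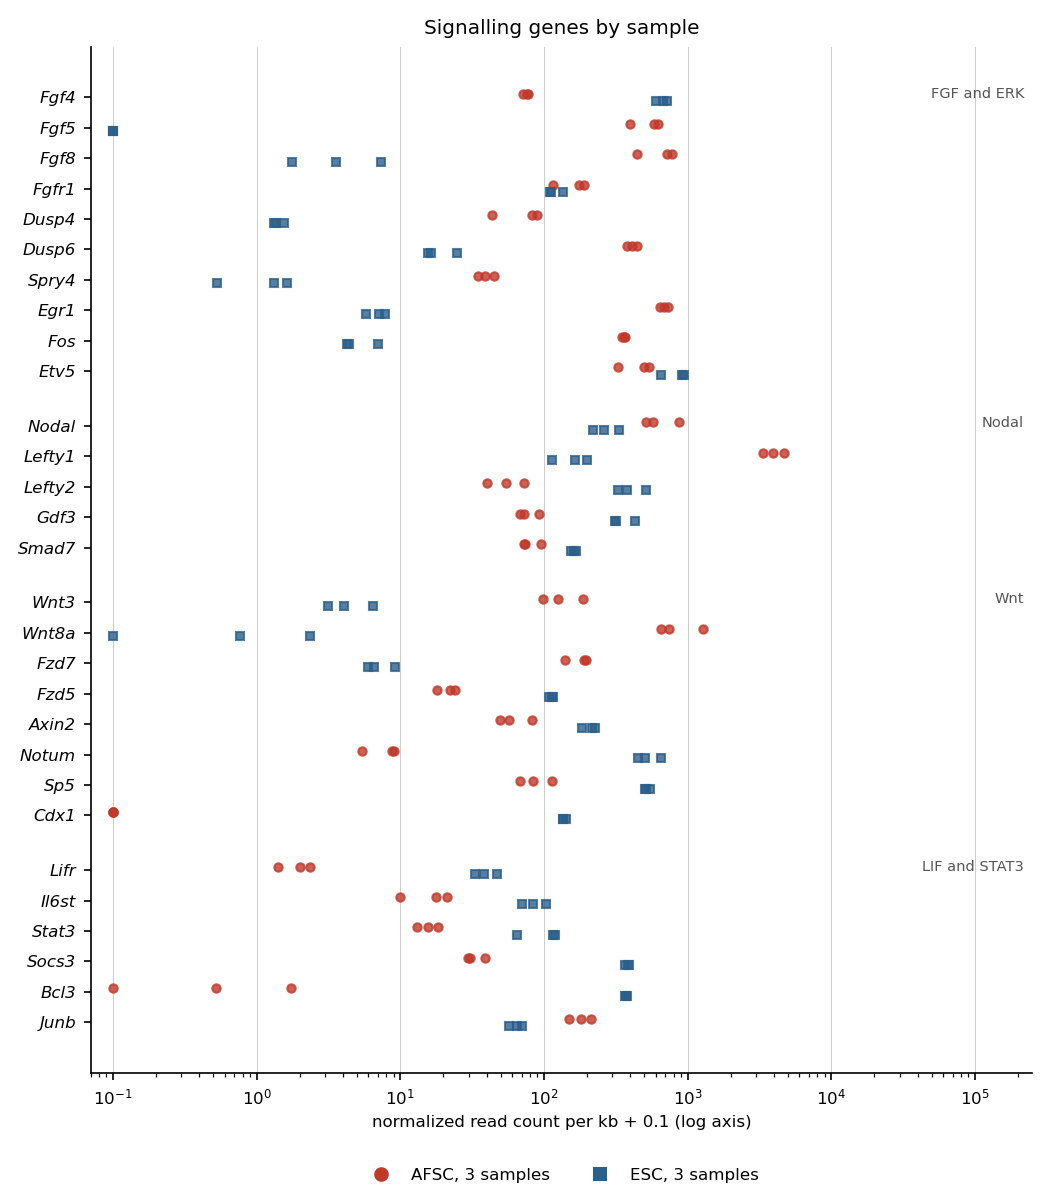
Normalised read count per kb + 0.1 on a log axis for genes of the FGF, Nodal, Wnt and LIF pathways in the 3 AFSC samples (red circles) and the 3 ESC samples (blue squares); points at 0.1 have no counts. *Egr1*, *Dusp6* and *Lefty1* lie to the right in AFSC, *Notum*, *Axin2*, *Socs3* and *Bcl3* to the left, and *Fgfr1* overlaps.

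Germline genes, which are kept silent in somatic cells by methylation of CpG-rich promoters, formed a large block of losses. Of 38 tested genes of the germline and meiosis list 33 were lower in AFSC and 2 higher (86.8% and 5.26%), with a median log2 fold change of -5.86, or -3.44 with genes that had no count in a group set to their bound. *Dazl*, an RNA-binding translation factor of germ cells, had 576, 361 and 360 in ESC and no count in AFSC, at least 1031-fold lower. *Rpl10l*, a testis copy of a ribosomal protein gene, had 2159, 1614 and 1575 in ESC and no count in AFSC, at least 1509-fold lower. *Fkbp6*, *Hormad1*, *Sohlh2*, *Stk31* and *Tex11* also had no count in AFSC. Genes that were low in ESC already, such as *Mael*, *Asz1*, *Mov10l1* and *Slc25a31*, had 12 to 24 counts over the ESC samples and none in AFSC. The cohesin gene *Rec8* kept 43.6, 61.1 and 46.7 in AFSC against 123, 113 and 121 in ESC. *Mei4* and *Spo11*, both of the machinery that makes meiotic DNA breaks, were higher, on 42 and 36 counts in AFSC. *Spo11* had too few counts to be tested without AFSC replicate 1 or without AFSC replicate 2. *Tuba3a* and *Tuba3b* are nearly identical, and the authors' counting gives a read that maps to several places to each of them.

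Promoters are printed for the genes with the deepest losses as a description of their sequence. Whether they were methylated in these samples was not tested. Shown are the 250 bases before the start for the 3 germline genes, and then for 3 further naive factors, that were called lower with the largest fitted fold among those with a listed promoter (RefSeq, GRCm38.p6, 5′ to 3′ on the gene's strand), with each CpG in capitals. *Zfp42* stands in both lists and is shown with the naive factors.
Rpl10l (chr12:66284402-66284651, minus strand): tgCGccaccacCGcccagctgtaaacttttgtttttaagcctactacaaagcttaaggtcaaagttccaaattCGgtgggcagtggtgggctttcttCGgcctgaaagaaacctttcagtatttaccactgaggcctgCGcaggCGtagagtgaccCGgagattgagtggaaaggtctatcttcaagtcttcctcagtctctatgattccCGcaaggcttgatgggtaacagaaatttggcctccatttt
Dazl (chr17:50293621-50293870, minus strand): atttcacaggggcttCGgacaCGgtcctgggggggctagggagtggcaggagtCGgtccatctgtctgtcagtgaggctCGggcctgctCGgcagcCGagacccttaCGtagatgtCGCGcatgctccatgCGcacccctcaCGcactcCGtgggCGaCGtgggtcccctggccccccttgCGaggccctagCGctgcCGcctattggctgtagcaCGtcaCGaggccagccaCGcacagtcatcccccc
Fkbp6 (chr5:135350045-135350294, minus strand): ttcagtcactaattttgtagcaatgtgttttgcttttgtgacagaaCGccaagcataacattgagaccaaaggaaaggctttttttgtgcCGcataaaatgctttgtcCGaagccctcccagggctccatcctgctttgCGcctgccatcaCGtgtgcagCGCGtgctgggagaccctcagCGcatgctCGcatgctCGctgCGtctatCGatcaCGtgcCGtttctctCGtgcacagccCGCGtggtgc
Zfp42 (chr8:43307010-43307259, minus strand): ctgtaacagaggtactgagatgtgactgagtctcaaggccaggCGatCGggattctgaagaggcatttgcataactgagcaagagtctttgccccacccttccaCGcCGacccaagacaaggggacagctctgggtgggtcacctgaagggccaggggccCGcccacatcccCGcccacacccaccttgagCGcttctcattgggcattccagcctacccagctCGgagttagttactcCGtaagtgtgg
Nr0b1 (chrX:86191525-86191774, plus strand): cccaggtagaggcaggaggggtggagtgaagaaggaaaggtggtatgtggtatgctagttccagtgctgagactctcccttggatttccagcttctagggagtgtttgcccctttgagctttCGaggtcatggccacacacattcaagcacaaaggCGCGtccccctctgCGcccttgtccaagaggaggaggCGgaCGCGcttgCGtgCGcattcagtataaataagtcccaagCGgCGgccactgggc
Nr5a2 (chr1:136960449-136960698, minus strand): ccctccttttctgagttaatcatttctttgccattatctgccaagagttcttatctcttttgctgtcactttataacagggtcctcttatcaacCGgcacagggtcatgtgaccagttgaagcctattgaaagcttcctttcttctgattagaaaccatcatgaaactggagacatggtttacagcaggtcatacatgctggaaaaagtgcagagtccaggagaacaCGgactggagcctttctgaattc

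The germline promoters carried 8, 20 and 17 CpG in the order printed, and the naive ones 9, 11 and 2. The window of *Fkbp6* holds the E-box CACGTG, which is its own reverse complement, first at base -101 from the start, and that of *Zfp42* holds the octamer ATGCAAAT on 1 of its strands. Over windows of 250 bases before to 50 after the start, the E-box was found in 10 of the 28 germline promoters called lower (35.7%), in 245 of 2260 promoters of all genes called lower (10.8%), in 179 of 2378 of those called higher (7.53%) and in 1192 of 11846 tested genes with a promoter (10.1%). Genes of the germline list with it include *Ddx4*, *Sycp1*, *Sycp3*, *Hormad1*, *Mael*, *Stk31* and *Taf7l*. Of the germline genes with a promoter that were not called lower, *Brdt* and *Tdrd1* had it and *Sycp2* and *Mei4* did not. The E-box was therefore not limited to the germline genes that were lower. No germline promoter called lower had 5 CpG or fewer, and the median was 17.5. All genes called lower had a median of 16 CpG and 21.2% had 5 or fewer, against medians of 18.5 (14.2%) in genes called higher and 20 (12.1%) in all tested genes. The GC box GGGCGG, on either strand, was in 56.9%, 62.1% and 62.6% of these promoters in the same order, and the ETS motif CCGGAAGT in 3.5%, 4.21% and 7.62%. The octamer was in 1.55%, 1.89% and 1.41%, the ERR element TCAAGGTCA in 0.442%, 0.21% and 0.253% and the STAT motif TTCCNGGAA in 1.06%, 0.673% and 1.18%. A match is a description of the letters and not of binding.

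Genes of primordial germ cell specification were mostly lower. Of 13 tested 10 were lower and 1 higher, with a median of -2.97, and *Prdm14* and *Dppa3* are shared with the lists above. *Tfap2c*, an AP-2 factor, was at 16.5, 15.4 and 15.8 in AFSC and 290, 258 and 264 in ESC, and *Prdm1* (BLIMP1) at 1.47, 1.9 and 3.02 against 16.1, 18 and 17.5. The receptor gene *Kit* was at 8.46, 5.2 and 13 against 468, 279 and 305. *Smad1*, which relays BMP signals, was the higher one (1.19 ± 0.138).

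Hox genes are set out in 4 clusters and pattern the body axis after gastrulation. Of 39 Hox genes 18 could be tested, 15 were lower in AFSC and none higher, with a median log2 fold change of -5.59, or -3.97 with bounds. Levels in ESC were low, and the summed level of all 39 was 285 to 326 in ESC and 25.5 to 44.2 in AFSC. The genes of the Hoxc cluster made up most of it. *Hoxc13* was at 0.547, 0.47 and 0.842 in AFSC and 88.8, 87.5 and 89.3 in ESC, and *Hoxc12*, *Hoxc4*, *Hoxc5*, *Hoxc6* and *Hoxc11* had no count in AFSC. *Hoxb9* also had none against 31.4, 18.5 and 18.2 in ESC, at least 47-fold lower. In the fit of the AFSC and ESC samples alone 8 Hox genes were lower, and 1 was higher without AFSC replicate 1 or without AFSC replicate 2. *Hoxb1* and *Hoxa2* had 20 and 14 counts in AFSC and none in ESC and were too low to be tested. Without the filter on low counts these 2 genes were called higher. With at least 10 counts required in each of the 6 samples, which removes genes silent in a group, 0 Hox genes were called lower.

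Of 19 tested genes of the two-cell-like state 6 were lower and 1 higher, with a median log2 fold change of -2.28, or -0.6 with bounds, and 3 were lower in the fit of the AFSC and ESC samples alone. *Zscan4f* had 2 counts in AFSC and 50 in ESC, and *Zscan4c* 4 and 48. These families are near identical, so reads are shared among members, and 9 of the 20 genes were below a level of 1 in both groups. *Gm4340* was at 0, 0.888 and 0 in AFSC and 58.9, 32.2 and 48.8 in ESC. *Sp110*, the higher one, was not called without AFSC replicate 2, ESC replicate 2 or ESC replicate 3.

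Enzymes of DNA methylation changed in both directions, 6 higher and 8 lower of 21 tested (28.6% and 38.1%). The de novo methyltransferases rose, *Dnmt3b* from 157, 181 and 189 to 876, 1133 and 1059 and *Dnmt3a* from 5.92, 7.76 and 7.71 to 26, 30.7 and 32.9 (2.54 ± 0.149 and 2.05 ± 0.17, edgeR, adjusted p = 2.74e-11 and 3.92e-09), while their partner *Dnmt3l* fell by 5.92 on the log2 scale. The maintenance enzyme *Dnmt1* was at 239, 277 and 255 in AFSC and 426, 534 and 530 in ESC, without overlap and just inside the threshold of size (-0.95 ± 0.126), and its recruiter *Uhrf1* was lower, at 350, 473 and 459 against 904, 1334 and 1322. Of the TET dioxygenases, which oxidise 5-methylcytosine, *Tet1* was at 38.9, 23.5 and 35.4 against 125, 121 and 131 and *Tet2* at 4.31, 2.2 and 3.93 against 51.6, 48.3 and 53.1, both lower, and *Tet3* at 12.7, 7.84 and 12.5 against 2.24, 2.23 and 3.14, higher. *Zfp57*, which guards imprints together with *Trim28*, was lower, as was *Trim28*.

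Of 31 polycomb genes 12 were lower and 4 higher (38.7% and 12.9%), with a median of -0.75. In PRC2, which methylates H3K27, *Suz12* was at 349, 228 and 259 in AFSC and 825, 803 and 800 in ESC, *Eed* and the cofactor *Mtf2* were lower, and *Ezh2* was at 107, 158 and 148 against 167, 227 and 226 and not called. The PRC2 partner *Epop* was the member with the highest level in ESC, 1715, 2233 and 2224, and was at 142, 210 and 194 in AFSC. *Cbx8* fell by 4.67 on the log2 scale. In the variant complex PRC1.6, *E2f6* was higher, at 131, 199 and 168 against 31.7, 59.1 and 51.1, *Mga* was at 45.1, 37.2 and 43.4 against 81.5, 79.4 and 92.9 and called lower, and *Pcgf6* and *L3mbtl2* were not called.

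Imprinted genes are transcribed from 1 parental allele. Of 49 tested 20 were higher and 16 lower, 40.8% and 32.7%, with a median of 0.3. At the growth factor locus, *Igf2* was at 35.1, 12.7 and 20.3 in AFSC and 2.41, 0.61 and 0.78 in ESC and *H19* at 4.54, 0 and 0 against 18.3, 5.4 and 13.2. *Grb10* rose from 12.1, 18.2 and 19.5 to 203, 297 and 316, *Phlda2* from 12.3, 15.6 and 14.9 to 294, 236 and 193 and *Gnas* from 115, 92.2 and 89.6 to 1496, 833 and 677. *Plagl1*, a zinc finger factor, fell from 220, 164 and 169 to 0.172, 0.148 and 0.397, and *Mest* from 74.4, 57.5 and 65.6 to 5.12, 2.93 and 3.15. The non-coding *Meg3* and *Rian* were higher by 1.31 ± 0.285 and 1.22 ± 0.247 and varied between AFSC samples. The counting did not use strand, so reads of antisense partners in these loci cannot be told apart.

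In the cadherin and epithelial to mesenchymal list 14 of 28 tested genes were higher and 4 lower, with a median of 1.04. E-cadherin (*Cdh1*) overlapped at 873, 483 and 762 in AFSC and 1250, 789 and 844 in ESC, and was lower in AFSC in each pair of samples with the same number. Its log2 fold change of -0.44 ± 0.226 had an adjusted p of 0.103 (edgeR). With a replicate block over all 18 samples it was -0.43 with an adjusted p of 0.0703 (edgeR). The block in the 6 samples alone, chosen after seeing the data, gave -0.43 with an adjusted p of 0.00243 (edgeR). Leaving out 1 replicate gave adjusted p-values from 0.0355 to 0.429 (edgeR). The change was under the threshold of size in all of these fits. N-cadherin (*Cdh2*) was low in both and higher in AFSC, at 26, 16.2 and 28.8 against 4.15, 2.45 and 2.63. Epithelial genes were among the rises: *Esrp1*, an epithelial splicing factor, was at 92.5, 105 and 108 against 0.625, 0.369 and 1.06, *Cldn7* at 160, 164 and 252 against 8.09, 7.77 and 6.3 and *Epcam* at 1259, 1104 and 1374 against 736, 395 and 459. Of the genes tied to mesenchyme, *Twist1* and *Zeb2* were higher, *Snai1* lower and *Vim* at 1688, 1180 and 1148 against 811, 734 and 709, under the threshold of size.

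Basement membrane genes were divided, with 10 of 29 matrix genes higher and 8 lower (34.5% and 27.6%). *Lama1*, the alpha chain of the first laminin of the embryo, was at 0.849, 0.608 and 0.871 in AFSC and 177, 126 and 132 in ESC, while *Lama5* was at 391, 246 and 445 against 596, 385 and 419 and not called. *Nid1*, which links laminin to collagen IV, was at 8.46, 7.66 and 12.3 against 428, 354 and 359, and its paralog *Nid2* was at 448, 271 and 511 against 783, 561 and 633 and not called. Fibronectin (*Fn1*) was lower at 87.7, 38.7 and 74.6 against 785, 642 and 660. The study's methods give a fibronectin coating for AFSC and do not name a coating for ESC. Whether the coating bears on *Fn1* was not tested. The collagen IV genes *Col4a1* and *Col4a2* were higher, *Col4a1* at 27.6, 19.7 and 40.2 against 6.59, 7.02 and 7.92. *Tnc* and *Lama4* were also higher.

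Metabolic genes showed a sharp change in few members. *Tdh*, threonine dehydrogenase, through which mouse ESC feed threonine into glycine and acetyl-CoA, was at 10.8, 7.97 and 10.7 in AFSC and 2010, 2541 and 2516 in ESC (-7.90 ± 0.212, edgeR, adjusted p = 1.18e-15), and its partner *Gcat* fell by 1.14 on the log2 scale. *Phgdh*, *Psat1* and *Psph*, the enzymes of serine synthesis, were all higher, *Phgdh* at 1117, 1648 and 1286 against 234, 301 and 298. In all 6 of 19 were higher and 2 lower, and 4 were lower without AFSC replicate 2. Of 29 glycolysis genes 3 were higher and 8 lower (10.3% and 27.6%). Those lower included *Hk1*, *Hk2*, *Pfkp* and *Ldhb*, with *Hk2* at 169, 208 and 196 against 403, 561 and 589, while *Gapdh*, *Pkm* and *Ldha* were not called. *Ldha* and *Pkm* varied within groups, with replicate 1 at the bottom in both: *Pkm* was at 3573, 9430 and 7913 in AFSC and 3408, 8592 and 7926 in ESC. Of 24 tested cytochrome c oxidase genes 2 were higher and 2 lower, and *Cox10*, an assembly factor, was no longer among the higher ones without AFSC replicate 2 or without ESC replicate 1. The mitochondrial genes among them followed the share of mitochondrial counts given above, *mt-Co1* at 213174, 21148 and 26364 in AFSC and 128862, 39155 and 43497 in ESC, and *mt-Co1*, *mt-Co2* and *mt-Co3* were called lower without AFSC replicate 1. The X-linked share of counts was computed with and without the mitochondrial genes. For other results the part of that share was not tested beyond leaving out each replicate.

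Cell cycle genes of the G1 phase were mixed, with 4 of 25 higher and 9 lower. These are 16% and 36%, against 19.9% and 19.6% of all tested genes. *Myc* was at 218, 261 and 203 in AFSC and 8.54, 10.1 and 7.26 in ESC, *Mycn* overlapped at 193, 332 and 251 against 278, 325 and 334 and *Mycl* was lower. Cyclin D2 (*Ccnd2*) was higher, at 23.8, 29.9 and 35.3 against 2.09, 1.48 and 2.96, and cyclins D1 and D3 were lower. *Cdkn2a* was at 137, 115 and 91.9 against 410, 356 and 302.

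Antigen presentation by MHC class I was a group in which most members rose: 12 of 20 tested genes were higher and 2 lower (60% and 10%), with a median of 1.8. The lower ones were 1 without AFSC replicate 2, ESC replicate 2 or ESC replicate 3. The heavy chains *H2-K1* and *H2-D1* were at 135, 97.6 and 166 and 152, 145 and 188 in AFSC and at 23.4, 18.3 and 18.4 and 26.7, 15.8 and 16 in ESC, and their light chain *B2m* at 651, 327 and 328 against 204, 85.3 and 101. The peptide transporter *Tap1* was at 52.4, 55.6 and 83.8 against 3.24, 1.7 and 2.24. The immunoproteasome subunit *Psmb8* had 3 counts in ESC and 103, 109 and 84.1 in AFSC, a ratio of 202 (95% Poisson interval 69.2 to 980), and *Psmb9* and *Psmb10* were higher too. Of the factors known to regulate them, *Irf1* was at 114, 123 and 102 in AFSC and 96.6, 81.1 and 79.7 in ESC and was not called higher, and *Irf9* was lower at 28.3, 16.3 and 18.7 against 77.1, 58.1 and 63.4.

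**Figure D4:**
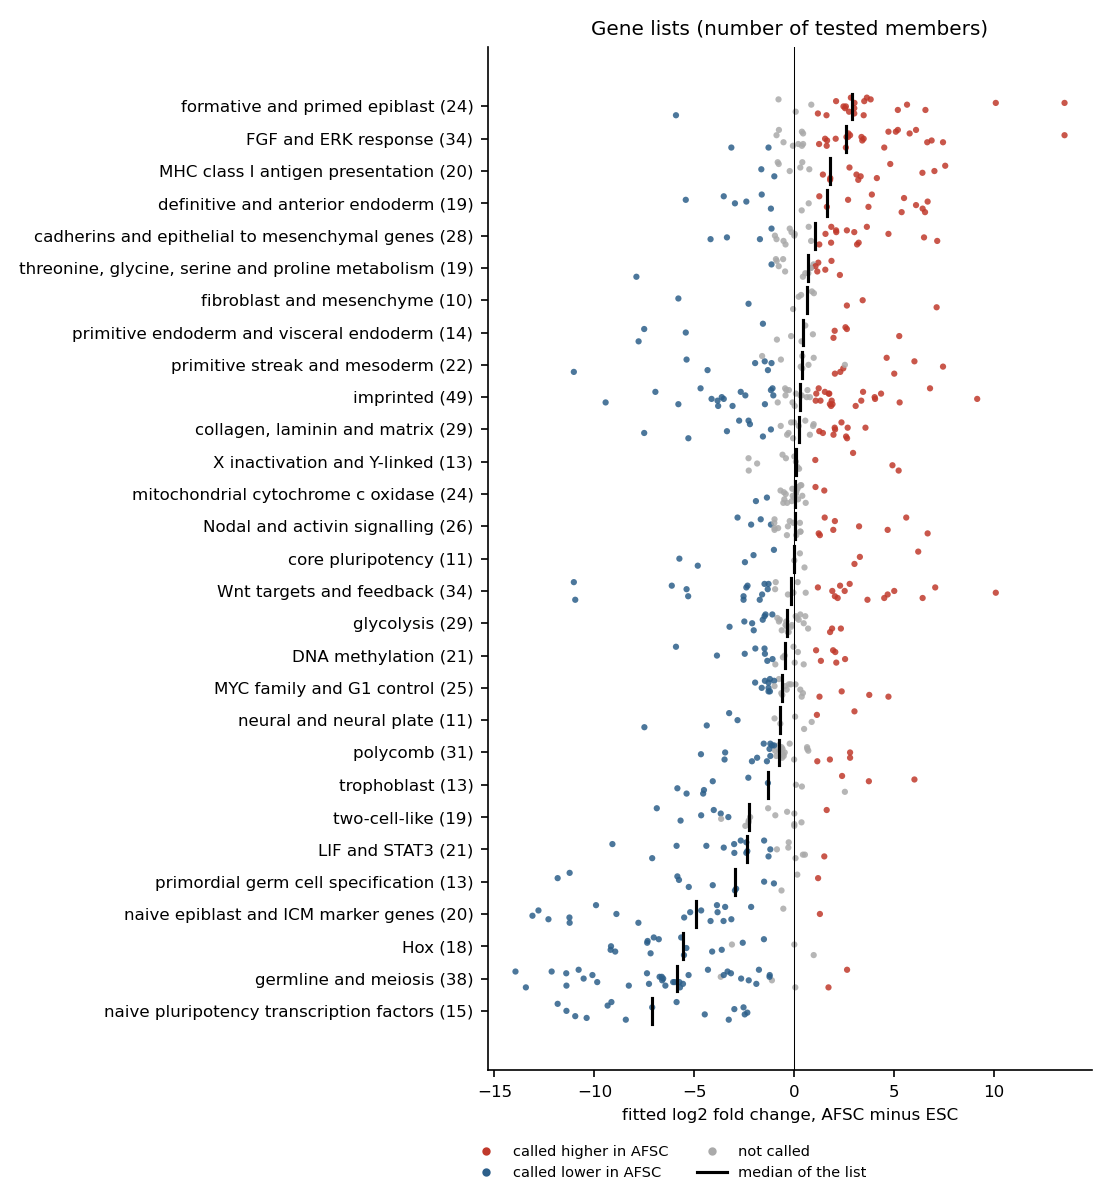
Fitted log2 fold changes (AFSC minus ESC) of the tested members of 29 gene lists, with 1 point per gene, red where called higher, blue where called lower and grey where not called, a black bar at the list's median and the number of tested members after the name. Medians run from -7.11 for the naive transcription factors to 2.91 for the formative and primed epiblast, and several lists hold both red and blue points; fitted values of genes without counts in a group are not bounds.

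X-linked genes were examined because female naive cells keep both X chromosomes active. *Xist*, the RNA that coats the inactive X, was at 271, 142 and 291 in AFSC and 10.8, 4.74 and 4.29 in ESC (5.22 ± 0.372, edgeR, adjusted p = 8.22e-10), and its neighbours *Jpx*, *Ftx* and *Rlim* were higher as well. *Tsix* lies antisense to *Xist* and was not called. Without strand in the counting, reads of *Tsix* and *Xist* cannot be told apart where these genes overlap. Of the 13 tested genes of this list 4 were higher and none lower, and *Kdm5d* was called lower without AFSC replicate 3 or without ESC replicate 3. The Y-linked genes *Uty*, *Kdm5d*, *Ddx3y* and *Eif2s3y* had at most 10 counts in a group. Over 641 tested X-linked genes the median log2 fold change was -0.03, the same as over 16212 autosomal genes. Calls were nevertheless frequent on the X in both directions, 25.1% of genes higher and 27.3% lower. X-linked genes took 2.35%, 2.79% and 2.84% of the counts in the AFSC samples and 2.37%, 2.43% and 2.46% in the ESC samples, which overlapped (exact permutation test, two-sided, p = 0.4). With mitochondrial genes left out, a choice made after seeing the data, the shares were 2.74%, 2.83% and 2.9% in AFSC and 2.57%, 2.5% and 2.53% in ESC, without overlap (exact permutation test, two-sided, p = 0.1, the smallest that 3 against 3 allow). Over the autosomes the share called higher ran from 14.6% on chromosome 16 to 29.4% on chromosome 14, and the share called lower from 14.7% on chromosome 11 to 24.7% on chromosome 13. The shares of chromosomes include runs of similar copies that share reads, described below. Among them are 18 genes called higher on chromosome 14 and 19 called lower on the X. Chromosome medians ran from -0.21 on chromosome 13 to 0.26 on chromosome 11.

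**Figure D5:**
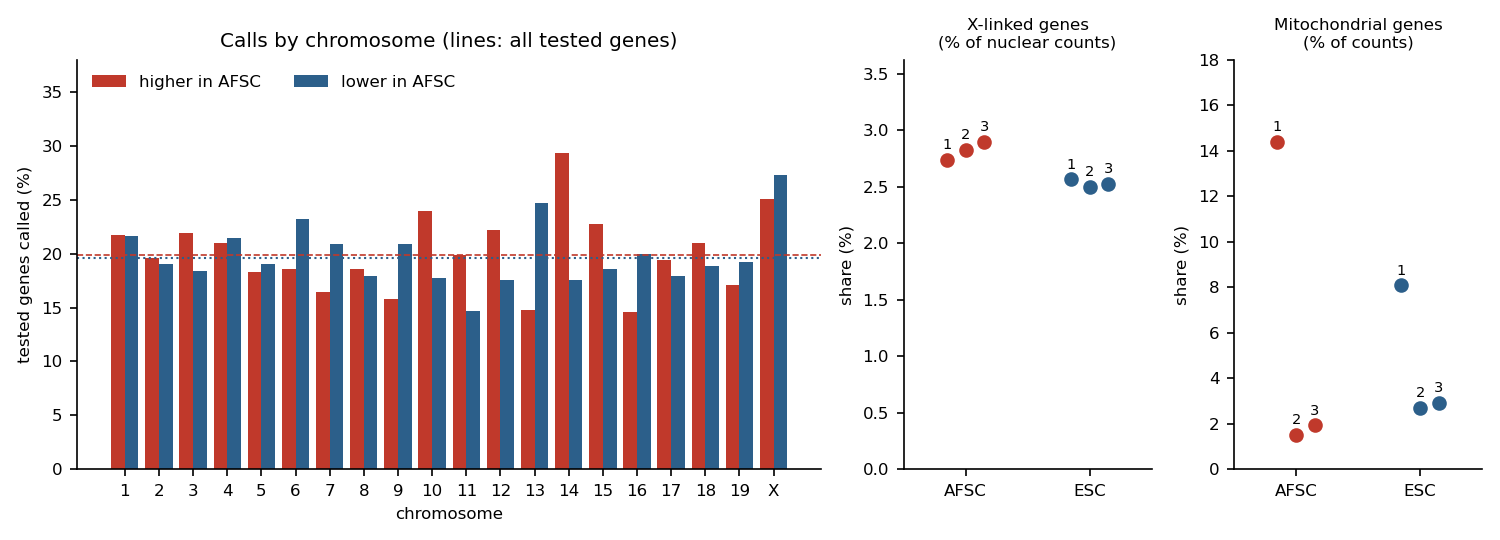
Left, percent of tested genes called higher (red) or lower (blue) in AFSC on each chromosome, with lines at 19.9% and 19.6% for all tested genes; middle and right, the percent of nuclear counts on X-linked genes and the percent of all counts on mitochondrial genes in each sample, with replicate numbers beside the points. The X has high shares in both directions, and replicate 1 has the highest mitochondrial share in both groups.

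Runs of neighbours called in the same direction were counted as a description of position. With at least 6 tested genes in a row, there were 21 runs of genes called higher and 24 of genes called lower. The longest, 29 genes called lower on chromosome 4 (145410245 to 147809788), holds zinc finger genes such as *Zfp990*, *Zfp600*, *Rex2* and *Zfp534*. A run of 19 genes called lower on the X (37209348 to 38129967) begins with *Gm9* and goes on through the Rhox homeobox cluster from *Rhox1* to *Rhox13*, in which *Rhox5* had the highest level, 3969, 2095 and 2182 in ESC and 7.14, 3.07 and 4.12 in AFSC. A further run of 10 genes called lower on the X (73033981 to 73292976) holds *Pnma5*, *Pnma3* and the Xlr3, Xlr4 and Xlr5 genes. The longest run of genes called higher, 18 genes on chromosome 14 (5071040 to 5961745), consists of unnamed gene models such as *Gm8281* and *Gm3317*. These families are made of similar copies, and since the authors counted a read at every place it maps to, neighbouring copies share reads and are not independent.

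Among protein coding genes past the study's thresholds, the 12 largest fitted rises were those of *Fgf5*, *Cntfr*, *Arap3*, *2310007B03Rik*, *Ccdc194*, *Vrtn*, *Alox15*, *Gbp2*, *Klhl4*, *Gbp3*, *Wnt8a* and *Enpp2*. All of them had 0 to 3 counts over the ESC samples. *Cntfr*, a receptor subunit for ciliary neurotrophic factor, was at 656, 397 and 447 in AFSC, and *Alox15*, a lipoxygenase, at 336, 365 and 328. The interferon-induced GTPase gene *Gbp2* was at 192, 336 and 338 in AFSC with 1 count in ESC. The 12 largest fitted losses were those of *Rpl10l*, *Klhl22*, *Dazl*, *Hexa*, *Aqp3*, *Calcoco2*, *Tcl1*, *Triml1*, *C130074G19Rik*, *Ooep*, *Fkbp6* and *Osm*, with 0 counts in AFSC for each but *Calcoco2*, which had 1. Some of these are not germline or embryo genes. *Hexa*, the alpha subunit of the lysosomal enzyme hexosaminidase A, was at 645, 608 and 626 in ESC and had no count in AFSC, at least 996-fold lower. *Klhl22*, a ubiquitin ligase adaptor, was at 257, 301 and 299 in ESC, at least 1430-fold lower, and *Aqp3*, a water and glycerol channel, at 566, 546 and 640, at least 922-fold lower. *Calcoco2*, an autophagy receptor, was at 2860, 2787 and 2559 in ESC. In the EpiSC (epiblast stem cells) of the series, mean levels were 33.8 for *Hexa*, 8.8 for *Klhl22* and 0 for *Aqp3* and *Calcoco2*.

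The 12 genes with the highest levels per kb in AFSC among all those past the same thresholds without overlap, non-coding ones included, were *Gm20721*, *Gm47305*, *Lefty1*, *Gm47287*, *Lgals1*, *Gm27733*, *Gm47295*, *Gm47299*, *Sfn*, *Atf5*, *Pim2* and *S100a6*. *Gm20721*, on the minus strand of chromosome 2, was at 11249, 6145 and 4959 in AFSC and 853, 672 and 642 in ESC. These levels ran in step with those of *Gnas* given above. Counting without strand and for every overlapping gene cannot tell the reads of overlapping genes apart. Whether *Gm20721* and *Gnas* share reads was not tested. *Lgals1* (galectin 1) was at 3101, 2981 and 2607 in AFSC and 310, 308 and 304 in ESC. *Sfn*, an epithelial 14-3-3 protein, was at 1995, 2713 and 1986 against 120, 139 and 140, and *Atf5*, a stress-responsive transcription factor, at 2440, 2401 and 1785 against 159, 220 and 192. The kinase gene *Pim2* was at 1349, 2813 and 2339 against 33.1, 50.4 and 45.1. The corresponding genes in ESC were *Dppa5a*, *Ckb*, *Gsta4*, *Rps4l*, *Mir147*, *Gm17232*, *Nanog*, *Gm45090*, *Fabp3*, *Ldhb*, *Tubb2b* and *Spp1*. *Ckb*, the brain form of creatine kinase, was at 12504, 13231 and 12960 in ESC and 456, 502 and 387 in AFSC, and *Fabp3*, a fatty acid binding protein, at 3794, 3033 and 3375 against 134, 151 and 104. *Gm45090*, annotated as a long intergenic non-coding RNA, was at 6097, 2543 and 2553 against 224, 56.5 and 88.4. *Spp1* (osteopontin) had ESC replicate 1 at 5080 and the other ESC samples at 2138 and 2136, all above the AFSC samples.

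*Mir1906-1*, *Gm47305* and *Gm47287* were higher and *Gm25951* and *Gm23634* lower, with exon lengths of 64 to 91 bp, so that few counts make a high level per kb. The same holds for *Gm27733*, *Gm47295*, *Gm47299* and *Mir147*, at 68 to 80 bp. A fragment was counted for every gene it overlapped, so short entries can carry reads of a longer gene around them. *Gm27733* (X, 103461218 to 103461285) is the next tested gene after *Xist*, which starts at 103460375, and its reads may be those of *Xist*. Whether these short entries add to longer genes was not tested. *Gm17232*, annotated as antisense, had 3464, 5151 and 4955 in ESC and 23.8, 15.3 and 32 in AFSC, and without strand in the counting its reads cannot be told apart from those of a gene on the other strand. *Gm47305* and *Gm47287* had nearly the same counts, 747 and 742 in AFSC. The pseudogene *Rps4l* (chromosome 6, 148354656 to 148355598) was longer, and had 6314, 5251 and 4968 in ESC and 0, 2.46 and 1.1 in AFSC, 3 counts, a ratio of 4347 (95% Poisson interval 1488 to 21081).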

How the data were processed

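RNA-seq was available for 18 samples in 6 groups of 3, of which the AFSC and ESC samples were compared. According to the study's methods and the file headers, the authors mapped paired reads to GRCm38 with TopHat2, allowing 1 mismatch and guided by Ensembl release 86, and deposited raw counts of fragments per gene from featureCounts 1.5.0-p1 over exons. Their settings counted a fragment at every place it mapped to and for every overlapping gene, without regard to strand, so that near-identical, overlapping and antisense genes share fragments.

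From these counts, every gene that reached 10 counts in 3 or more of the 18 samples was tested with edgeR 4.0.16 (TMM normalisation, quasi-likelihood test in R 4.3.3, contrast AFSC minus ESC, all 18 samples in the fit), with Benjamini-Hochberg adjustment over 16901 genes. The study used DESeq2; its Wald test (DESeq2 1.42.0) was an alternative here. Levels are counts divided by DESeq2 size factors and exon length in kb. Biotypes were taken from GENCODE release M21 and promoters from RefSeq. Total counts ran from 4961934 to 8077252 in the 6 samples. Ratios for genes with 1 to 3 counts in a group carry 95% Poisson intervals, and folds for genes at 0 use a floor of 3 counts over the group; both cover counting error only.

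Groups came from the labels. The reported fit did not use the replicate numbers of the labels, so its tests are unpaired. Same-numbered AFSC and ESC samples did deviate together from their group means over genes (correlations of 0.5189, 0.2993 and 0.2948 for replicates 1, 2 and 3). Between AFSC and ESC samples of unlike number the correlations ran from -0.39 to 0.2234. Replicate 1, with the highest value, also had the highest mitochondrial share in both groups. Pairing by a replicate block was run only as an alternative. On simulated data of 16901 genes for this comparison, 57% of 100 genes changed by a log2 fold change of 1 and 95% of 100 changed by 2 were recovered, and 7 of 159 calls were false. The simulation gave every gene a dispersion of 0.03, changed no other genes and held no replicate effect. Its calls used the adjusted p alone. The share of false calls therefore does not measure that of the reported calls. Genes are named from 29 lists or as the 12 largest changes (protein coding genes) and the 12 highest levels (all genes) in each direction among those past the study's thresholds without overlap, and the 3 highest non-coding genes each way; genes in runs of neighbours were named after their values were seen, and some members of the lists are not reported here by name. The gene lists and comparisons were chosen with earlier results of these data known. Alternatives were other normalisations, filters, samples in the fit, a replicate block, ESC replicates 2 and 3 summed and leaving out each replicate.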

Additional observations from a re-analysis of the deposited data

How the results depend on the processing

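The counts of 3357 higher and 3316 lower genes were recomputed under other settings, and no gene called in both a setting and the reported fit changed direction. RLE size factors gave 3354 and 3322, TMM on autosomal genes 3364 and 3310, DESeq2 3320 and 3303, no filter on low counts 3819 and 3602, and a fit of the AFSC and ESC samples alone 2854 and 2589. A replicate block, which pairs the samples by number, gave 3357 and 3333, and 2904 and 2701 in the 6 samples alone, an alternative chosen after seeing the data, as was summing ESC replicates 2 and 3, which gave 3290 and 3298. The block over all samples removed the call of no gene named in the text. Leaving out 1 replicate gave 3238 to 3397 higher and 3152 to 3383 lower genes. Requiring at least 10 counts in each of the 6 samples, which removes genes silent in a group, gave 1521 and 1491, 477 and 443 by the study's thresholds (1365 and 1401 as reported), and an X-linked minus autosomal median of 0.0868 in place of -0.000653. Leaving out 1 replicate moved that median from -0.0388 to 0.0154 and the X-linked share difference of 0.239 percentage points from 0.148 to 0.395. Of 238 named genes called, 15 lost the call under at least 1 alternative in which they could be tested, 14 of them when a replicate was left out: *Cox10*, *Eed*, *Fgfr3*, *Foxa1*, *Gm25951*, *Map2*, *Meg3*, *Mga*, *Mycl*, *Rian*, *Rlim*, *Snai1*, *Sox17*, *Sp110* and *Zfp990* in all. Without the filter, 5 trophoblast genes and 5 fibroblast genes were higher, against 3 each as reported, and 4 fibroblast genes lower, against 2. *Hoxa2* and *Hoxb1* were also called higher without it. Of the genes not called, *mt-Co1*, *mt-Co2*, *mt-Co3* and *Zic1* changed sign. *mt-Co1* ran from -1.55 (without AFSC replicate 1, the library with the highest mitochondrial share) to 1.06 with 1 replicate left out, and was -0.27 with the block in the 6 samples, and *mt-Co2* ran from -1.62 to 0.69 and *mt-Co3* from -1.67 to 0.87. With 1 replicate left out, *Zic1* ran from -3.68 to 0.38, and the difference went to 0.00 for *Tsix*, from -0.64, *Ddx3y*, from -2.89, and *Eif2s3y*, from -2.91, the last 2 on at most 1 count. With 3 samples a group, the smallest p of the permutation test was 0.1.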
